A study of Mus musculus with 14 samples.

Results

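The 10 genes described here encode growth factor and matrix receptors with tyrosine kinase activity that fibroblasts are known to use, together with a close relative, Fgfr3. They were taken as a named list, Pdgfra, Pdgfrb, Fgfr1, Fgfr2, Fgfr3, Egfr, Met, Igf1r, Axl and Ddr2, and all 10 were found among the 21829 protein-coding genes on the chromosomes in GENCODE release M21. For each gene, the sites of mono-methylated lysine 4 of histone H3 (H3K4me1) were mapped over the gene and over 100 kb on each side.

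The mark was mapped by ChIP-seq in NG3, 1 clone of immortalized mouse embryo fibroblasts. The clone derives from iMEF Ash2l fl/fl Cre-ER cells, in which Cre-ER deleted exon 4 of Ash2l and a lentivirus supplies FKBP-HA2-ASH2L, the human protein fused to a degradable tag. All groups carry this deletion and this construct, the control included, and were grown in the same serum-containing medium. The 12 H3K4me1 libraries are 2 each of the control and of cells kept for 0.5, 2, 4, 8 or 16 h with dTAG-13, a compound that ties the tag to a ubiquitin ligase, and 2 input libraries belong to the control and to 16 h.

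The deposited table gives 1 set of 160144 sites over all samples, as chromosome, start and end in mm10, and no height, read count or p-value for any library. Every value below is therefore a position, a number or a width of sites from this single set, for which it is not stated whether peaks were called on all libraries together or joined afterwards, without replicates, without a time point and without a test between groups. How deeply the libraries were sequenced cannot be read from the positions, so a stretch without a site cannot be told apart from a stretch with too few reads. Sites were between 200 bp and several kb wide, with a median of 603 bp, and 1500 of them (0.937%) reached 5 kb.

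Receptor tyrosine kinases are membrane proteins that pair up when a ligand binds outside the cell, phosphorylate each other, and pass the signal through adaptors to the RAS-MAPK and PI3K pathways. Fibroblasts divide in response to PDGF, FGF, EGF and IGF, move in response to HGF, and sense collagen through DDR2. H3K4me1 is set by KMT2 complexes, of which ASH2L is a subunit. It is found along enhancers and on the shoulders of promoters, while the nucleosomes next to an active start site mostly carry the trimethylated form.

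Of the 10 receptors, 9 had a site within 1 kb of their most upstream annotated start, against 63.8% of all protein-coding genes. The exception was Fgfr1, whose most upstream start belongs to a single transcript at -5105 bp from the start used below, and the nearest site lay 3508 bp from it. For Fgfr2 the most upstream start also belongs to a single transcript, which extends the annotated gene to 2960.9 kb. For the rest of the text the start is that of a reference transcript, the principal protein-coding transcript with the longest coding sequence. At this start all 10 receptors had a site within 1 kb, against 14069 of 21829 protein-coding genes and 41 of 48 other receptor tyrosine kinases. At all 10 a site covered the start base itself, against 40.4% of all protein-coding genes. These counts rest on 10 genes that were chosen for their use in fibroblasts, and no test was made of them. The set covers control and dTAG-13 libraries alike, and the paper reports that H3K4me1 gains after ASH2L loss lay almost only at promoters. Whether a site over a start, or its full width, was present in control cells cannot be told from the positions.

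The sites over the starts had different shapes. In 9 of 10 receptors the site reached further into the gene than away from it, against 70.7% of the 8814 covered starts of all genes. Its width had a median of 3481 bp over the 10 receptors, 1847 bp over all covered starts and 2115 bp over the 33 covered starts of other receptor tyrosine kinases. It was at least 5 kb wide at 4 receptors, Pdgfrb, Fgfr1, Axl and Ddr2, against 5.81% of covered starts.

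The PDGF receptors bind platelet-derived growth factors and drive the division and migration of mesenchymal cells. Pdgfra lies on the plus strand at chr5:75152306-75198215 and had the narrowest site of the group over its start, 350 bp from 210 bp upstream to 139 bp downstream. A second site of 2446 bp followed in intron 1, from +551 to +2996 bp, so the start of Pdgfra had a stretch without a call just behind it. Only 1.87% of covered starts had a narrower site. Pdgfrb, on the plus strand at chr18:61045150-61085061, had instead an unbroken site of 6165 bp that ran from 2516 bp upstream to 3648 bp downstream, wider than at 96.6% of covered starts.

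The FGF receptors bind fibroblast growth factors together with heparan sulphate. The site over the start of Fgfr1, on the plus strand at chr8:25518759-25575718, was 5088 bp wide and extended 488 bp upstream and 4599 bp downstream. The site at Fgfr2, on the minus strand at chr7:130163709-130266191, was 3560 bp wide, 629 bp of it upstream. Another annotated start of Fgfr2, shared by 13 transcripts, lies 4334 bp further into the gene, and this start was covered by a site as well. Fgfr3, on the plus strand at chr5:33721724-33737068, had a site of 2845 bp with 744 bp upstream and 2100 bp downstream. In shape and width the start of Fgfr3 was thus close to those of Egfr, with 2880 bp, and Met, with 2473 bp, while 1 site in all was centred in Fgfr3, 51 in Egfr and 29 in Met. An unclassified transcript on the other strand, G630022F23Rik, overlaps the start of Fgfr3, and the same site lies within 1 kb of its start.

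Egfr, the receptor for EGF and related ligands, lies on the plus strand at chr11:16752211-16918158, and the site over its start reached 636 bp upstream and 2243 bp downstream. At Met, the receptor for hepatocyte growth factor, on the plus strand at chr6:17463800-17573980, the site reached 475 bp upstream and 1997 bp downstream. Igf1r, the receptor for insulin-like growth factors, lies on the plus strand at chr7:67952827-68233668 and had a site of 3402 bp, 802 bp of it upstream. Axl, which binds GAS6, lies on the minus strand at chr7:25757273-25788687 and had the widest site of the 10 over its start, 12415 bp from 3052 bp upstream to 9362 bp downstream. Of all covered starts, 30 had a site of this width or more, that of Axl included. Ddr2, a receptor for fibrillar collagen, lies on the minus strand at chr1:169972307-170110561 and had a site of 5116 bp, with 2109 bp upstream and 3006 bp downstream.

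**Figure D1:**
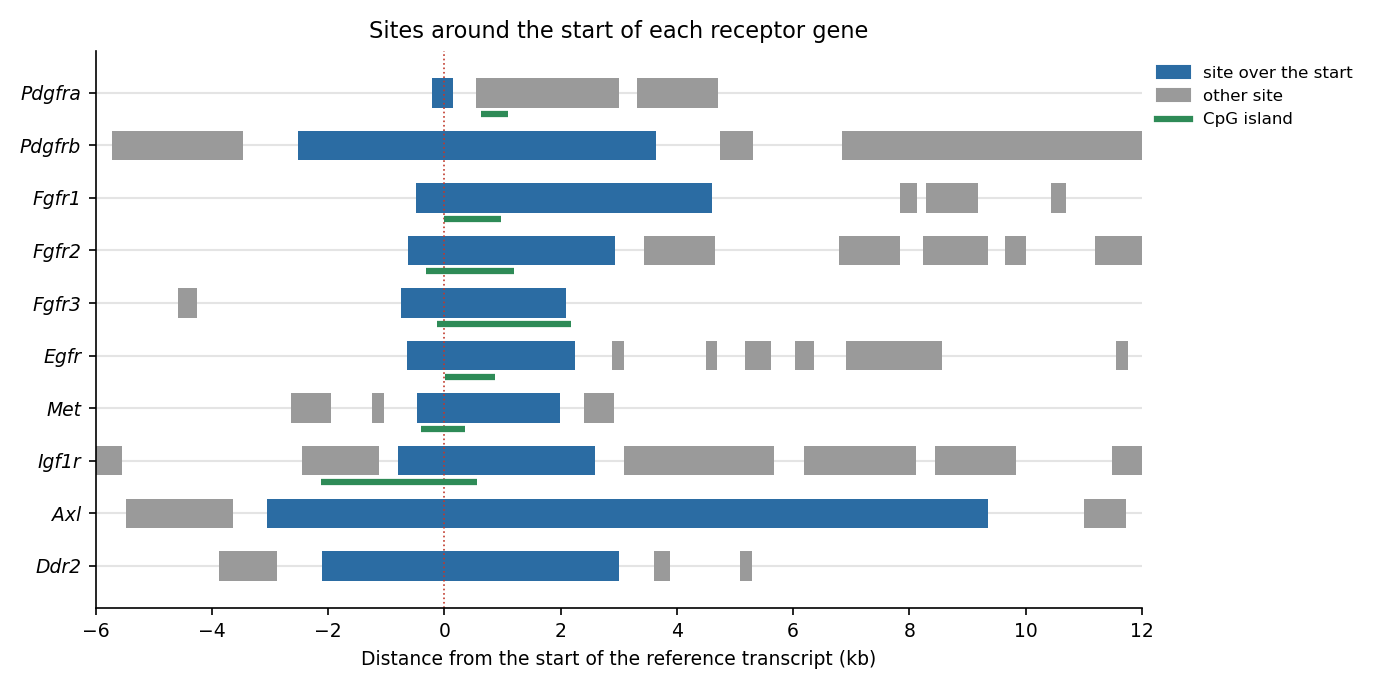
Sites around the start of the reference transcript of each receptor. The horizontal axis is the distance from the start in kb in the direction of transcription, blue blocks are the sites over the start, grey blocks are other sites, and green lines are CpG islands. The 3 genes without an island, Pdgfrb, Axl and Ddr2, have the widest upstream reach (2516, 3052 and 2109 bp), and Pdgfra has the shortest site over its start (350 bp).

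A CpG island, a stretch rich in the dinucleotide CG that many promoters hold, lay within 1 kb of the start at 7 of 10 receptors and at 54.5% of all protein-coding genes. The 3 receptors without an island, Pdgfrb, Axl and Ddr2, had sites over the start of 6165, 12415 and 5116 bp. All were wider than the sites of the 7 receptors with an island, which ran from 350 to 5088 bp with a median of 2880 bp. Ddr2 and Fgfr1 lay close, at 5116 and 5088 bp. Width by island was not measured over all genes, and a link between the 2 was not tested. Among all protein-coding genes, 57.1% of the 11907 starts with an island and 20.4% of the 9922 starts without were covered by a site. The longest islands were those of Igf1r, 2679 bp from -2123 to +555 bp, and of Fgfr3, 2317 bp from -131 to +2185 bp. Sites covered 87.8% of the Igf1r island and 96.3% of the Fgfr3 island. The island at Pdgfra was the shortest at 455 bp and began 633 bp behind the start, inside the second site.

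The promoter sequences show this range in CpG content. RefSeq promoter entries in GRCm38.p6 were matched for 8 of 10 receptors, which leaves out Pdgfrb and Fgfr1, and 4 are printed, those with the lowest and the highest CG counts among the entries that lie wholly under a site. The entries of Ddr2, with 1 CG before an internal start, and of Fgfr2, with 2, lie only partly under a site (43.3 and 10%) and are not shown. Of 2 entries for Fgfr3, with 11 and 12 CG, the one before the reference start is given. Each printed sequence is the 120 bases directly before a start annotated in RefSeq or GENCODE, 5′ to 3′ on the strand of the gene, with every CG in capitals. Igf1r held 23 CG in 120 bases, Fgfr3 held 11, Axl held 3 and Pdgfra held 0. The coordinates are chr7:67952137-67952256 on the plus strand for Igf1r, chr5:33721554-33721673 on the plus strand for Fgfr3, chr7:25788734-25788853 on the minus strand for Axl and chr5:75152131-75152250 on the plus strand for Pdgfra.
Igf1r: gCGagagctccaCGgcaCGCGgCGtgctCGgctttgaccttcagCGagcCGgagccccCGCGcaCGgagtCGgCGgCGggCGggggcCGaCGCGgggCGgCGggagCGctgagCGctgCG
Fgfr3: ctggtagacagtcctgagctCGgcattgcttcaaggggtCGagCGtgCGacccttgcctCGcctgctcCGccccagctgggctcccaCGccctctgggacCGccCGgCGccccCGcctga
Axl: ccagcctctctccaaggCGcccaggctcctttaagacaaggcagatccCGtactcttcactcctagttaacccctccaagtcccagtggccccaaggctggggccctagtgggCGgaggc
Pdgfra: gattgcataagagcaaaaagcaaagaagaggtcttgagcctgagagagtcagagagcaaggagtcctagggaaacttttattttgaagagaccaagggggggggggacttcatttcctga
The sequences of Axl and Pdgfra lie under the widest and the narrowest of the 10 sites over a start, and both hold few or no CG.

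Inside the genes, 238 sites were centred in the 921.4 kb of intron of the 10 receptors, 2.58 sites per 10 kb of intron. Over all protein-coding genes the density was 0.867 per 10 kb, and over 48 other receptor tyrosine kinases it was 0.536. The medians per gene were 2, 0.606 and 0.596 per 10 kb. At least 1 intron site was found in 9 of 10 receptors, all but Fgfr3, against 63.5% of the protein-coding genes with an intron. Among the other receptor tyrosine kinases, 40 of 48 had 1 as well, so this count does not set the receptors apart. The median gene length was 79.7 kb for the receptors, 55.3 kb for the other kinases and 16.0 kb for all genes. Broad signals are often called as several neighbouring sites, so the number depends on how they are joined. Joining sites within 1 kb of each other left 114 sites in the introns, and 153 were 500 bp wide or more.

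The density differed widely between the receptors. Fgfr2 had 34 sites in 99.2 kb of intron (3.43 per 10 kb), Egfr 49 sites in 155.7 kb (3.15), Igf1r 78 sites in 269.4 kb (2.89), Met 28 sites in 103.4 kb (2.71) and Ddr2 32 sites in 129.7 kb (2.47). These 5 receptors lay above 88.2 to 93.7% of all genes. Fgfr1 with 8 sites (1.54 per 10 kb) and Pdgfrb with 4 sites (1.16) followed. Pdgfra with 3 sites (0.762 per 10 kb) and Axl with 2 sites (0.737) lay just above the median of all genes. Without sites within 1 kb of an annotated start these became 0.254 for Pdgfra and 0.368 for Axl, and Fgfr1 went to 0.963. The order also depended on the joining of sites: with those within 1 kb merged, Fgfr1 (1.35 per 10 kb) lay above Igf1r (1.26) and Ddr2 (0.848), and Axl (0.737) above Pdgfrb (0.58). Fgfr2 stayed highest and Fgfr3 lowest on merging. Without sites near a start, Egfr (2.95) lay above Fgfr2 (2.92). With any overlap with an intron counted, Axl (0.737) was lowest and lay below Fgfr3 (0.901).

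**Figure D2:**
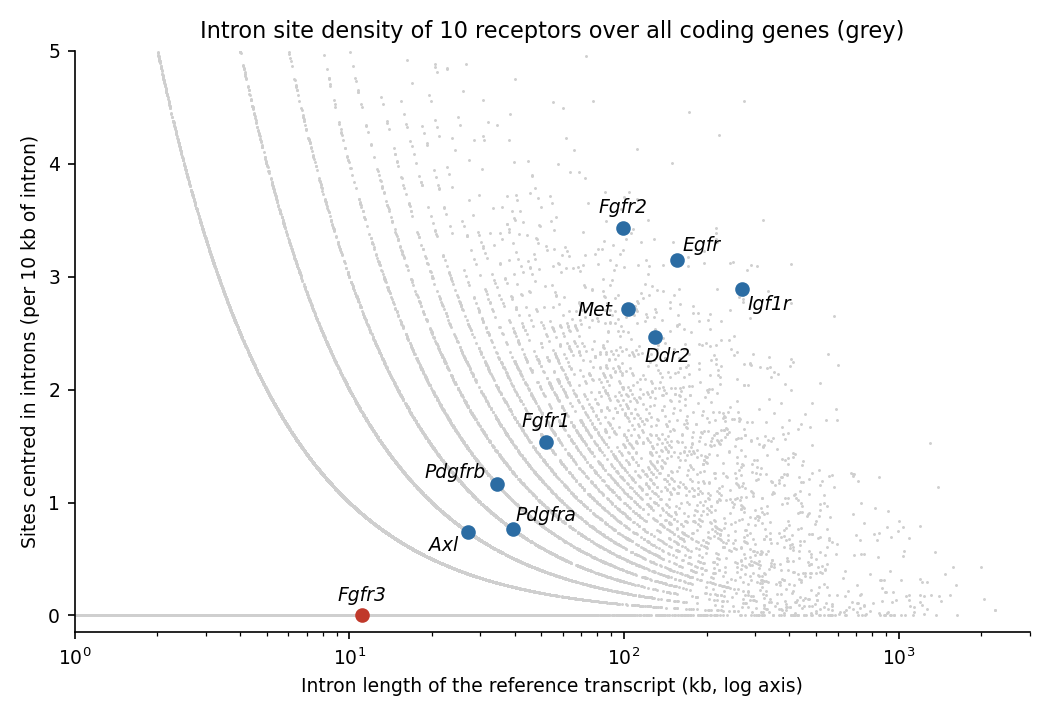
Sites centred in introns per 10 kb of intron against the intron length of the reference transcript in kb on a log axis. Grey points are 18870 protein-coding genes, blue points are the receptors and the red point is Fgfr3, and 507 genes above 5 per 10 kb and 955 genes with under 1 kb of intron are not drawn. The 5 receptors with the longest introns, 99.2 to 269.4 kb, have 2.47 to 3.43 sites per 10 kb, and Fgfr3 with 11.1 kb has 0.

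Fgfr3 had 0 sites centred in 11.1 kb of intron. Its only site, the one over the start, was centred in an exon, although it reached into introns, and the remaining 13244 bp or 86.3% of the gene held no site. At the pooled density of the other 9 receptors, 2.61 per 10 kb, 2.9 sites would have fallen into introns of this length. A count of 0 allows a density of up to 2.7 per 10 kb (3 counts), for counting error only and with each site taken as independent. This is above the pooled density of the other receptors and below those of Fgfr2, Egfr, Igf1r and, barely, Met (2.71). With sites within 1 kb joined, the highest of the other receptors, Fgfr2, had 1.82 per 10 kb and lay below the bound too. A difference from the pooled density, or after joining from any other receptor, was thus not detectable over introns of this length. Of 865 protein-coding genes with 10 to 12 kb of intron, 289 (33.4%) had no intron site, and of the 361 among them whose start was covered, 77 (21.3%) had none. Fgfr3 is also the shortest of the 10 receptors, at 15.3 kb beside 31.4 kb for Axl, and length and the receptor's use in fibroblasts cannot be told apart here.

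The share of the gene covered by sites gave a different order, since few wide sites can cover as much as many narrow ones. Igf1r was covered over 40.7% of its 280.8 kb, Pdgfrb over 36.9%, Fgfr2 over 36.3%, Fgfr1 over 33.4% and Axl over 32.1%. Ddr2 with 27.9%, Egfr with 27.1% and Met with 18.7% followed, and Fgfr3 with 13.7% and Pdgfra with 11.1% were lowest. The median was 30% over the 10 receptors, 9.89% over the 48 other receptor tyrosine kinases and 6.32% over all protein-coding genes. Axl reached its value with 2 sites and Egfr a lower one with 51. When the bases within 1 kb of any annotated start were left out, the coverage of Fgfr3 fell to 0 and that of Pdgfra to 3.02%, while the other 8 receptors kept between 17.4% (Met) and 41.2% (Igf1r). For Fgfr3 all covered bases thus lay near an annotated start, while Pdgfra kept a site of 791 bp in intron 16 and 1 of 306 bp at an exon, the nearer at 31503 bp from its start.

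A site of 5 kb or more was centred in 5 of 10 receptors, Pdgfrb, Fgfr1, Igf1r, Axl and Ddr2, against 3.96% of all protein-coding genes. The median length was 79.7 kb for the receptors and 16.0 kb for all genes, and longer genes have more room for such a site. The widest sites were that of 12415 bp over the start of Axl, which 73 sites of the whole table equal or exceed, that one included, and that of 12086 bp in intron 2 of Igf1r, which 84 equal or exceed. The Igf1r site lay far from the start, from 191188 to 203273 bp downstream at chr7:68144015-68156100, and covered the internal start of a shorter annotated transcript. In Pdgfrb the widest site, 8248 bp at chr18:61051989-61060236, lay mostly in intron 1, 6839 to 15086 bp behind the start, and included the 46 bases of exon 2. In Fgfr1 it was 5589 bp in intron 2, at chr8:25540859-25546447. For Fgfr2, Fgfr3, Met and Ddr2 the widest site was the one over the start, with 3560, 2845, 2473 and 5116 bp. Egfr had its widest site of 3292 bp in intron 1, 55643 bp downstream of the start, and Pdgfra its widest of 2446 bp in intron 1 next to the start.

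**Figure D3:**
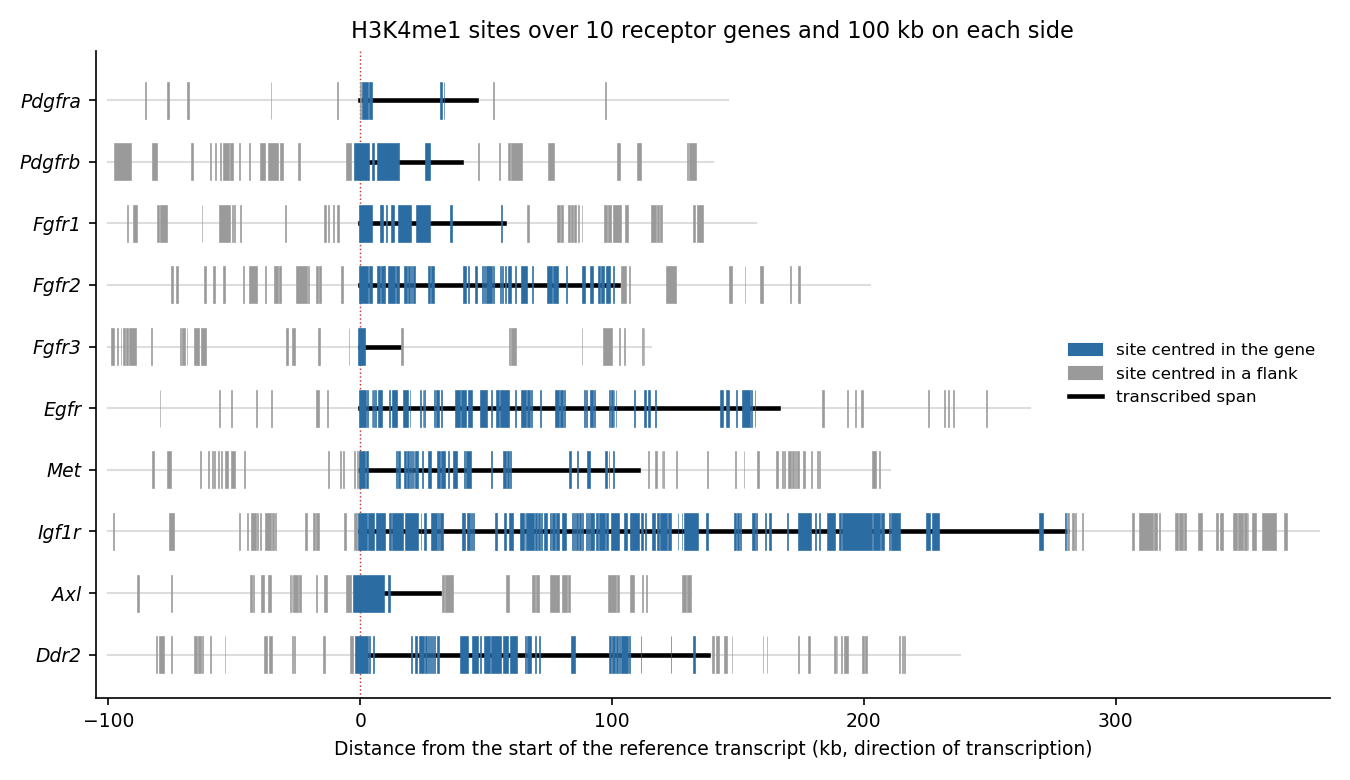
H3K4me1 sites over the 10 receptors and 100 kb on each side, drawn to 1 scale in kb from the start of the reference transcript. Blue blocks are sites centred in the gene, grey blocks are sites centred in a flank, and black lines are the transcribed spans. Igf1r holds 80 sites over 280.8 kb, Fgfr3 1 site over 15.3 kb, and Pdgfra has the emptiest surroundings with 12 sites in all.

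Along the genes, coverage was highest at the start end. Pooled over the 10 receptors it was 44.7% in the first, 29.9% in the middle and 18.6% in the last of 3 equal parts, against 13.2, 7.31 and 6.17% for all protein-coding genes. The fall was steep in Axl (89.4, 6.91 and 0%), Pdgfrb (80.4, 23.5 and 6.98%) and Fgfr1 (58.4, 39.8 and 1.89%). Fgfr3 fell as well, from 41.1% in the first part to 0 in the middle and the last. It was shallow in Fgfr2 (43.7, 33.4 and 31.9%), and in Ddr2 the middle part was the most covered (32.1, 35.6 and 16.1%). Pdgfra had 26.1% in the first part, 0 in the middle and 7.17% in the last. There a site of 791 bp lay in intron 16, and another of 306 bp was centred in an exon. Egfr, Met and Igf1r fell from part to part, with 39.5, 30.5 and 50.3% in the first and 15.9, 10.2 and 29.8% in the last.

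**Figure D4:**
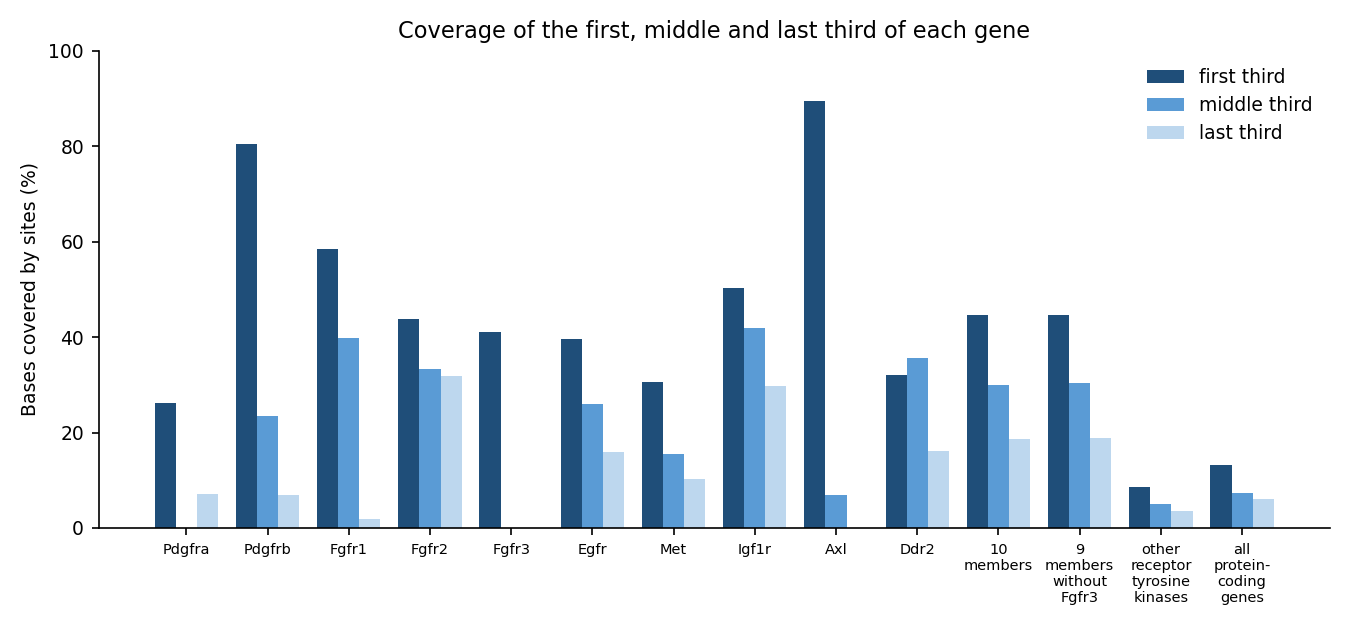
Share of bases covered by sites, in percent, in the first, middle and last of 3 equal parts of each receptor and, pooled, of the gene groups on the right. Each bar is 1 pooled value without error. The first part is the most covered in 9 of 10 receptors, and Ddr2 with 32.1 and 35.6% in the first and middle part is the exception.

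Introns 1 and 2 together held 176 of the 238 intron sites, or 73.9%, against 58.8% for all protein-coding genes and 48.4% for the other receptor tyrosine kinases. Igf1r with 74 and Egfr with 41 supplied most of the 176. Intron length enters these shares: introns 1 and 2 made up 244.2 and 267.7 of 921.4 kb in the receptors. In all genes they made up 242529.7 and 140823.4 of 908876.4 kb, and in the other kinases 1721.4 and 672.9 of 7056.7 kb. The shares alone therefore do not show a stronger concentration in the receptors. The density was 3.48 per 10 kb in introns 1, 3.4 in introns 2 and 1.51 in later introns of the 10 receptors. It was 1.36, 0.945 and 0.618 for all genes, and 0.895, 0.431 and 0.418 for the other receptor tyrosine kinases. A single intron held most of the sites in several receptors. Intron 1 of Egfr, 106.33 kb long, held 41 of its 49 sites, intron 2 of Igf1r, 160.64 kb long, held 57 of its 78, and intron 2 of Ddr2, 52.77 kb long, held 20 of its 32. Fgfr2 had sites in 11 of its 17 introns, among them 9 each in introns 2 and 6. Met had sites in 10 of 21 introns, of which intron 1 with 11 held the most. In Fgfr1 all 8 sites lay in introns 1 and 2, and a stretch of 19782 bp without a site followed, the longest in the gene.

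The intron sites were searched for the short recognition sequences of 3 factor families of fibroblast enhancers, on both strands of the central 200 bp of each site, each counted separately where they overlap. For AP-1 the pattern was TGANTCA, with any base accepted at N. It was found in 17 of 238 receptor sites (7.14%) and in 11.6% of 77181 intron sites of all protein-coding genes. GGAATG of TEAD factors was found in 12.2 and 13.6%, and TGTGGTT of RUNX factors in 4.62 and 5.67%. None of the 3 motifs was thus more frequent in the receptors than elsewhere. By receptor, AP-1 motifs were found in 6 sites of Igf1r, 4 of Egfr, 3 each of Fgfr2 and Ddr2, 1 of Met and 0 of Pdgfra, Pdgfrb, Fgfr1 and Axl.

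Over the full length of the widest site that was in an intron and over 1 kb from any start, the count of AP-1 motifs was 5 in Met (2043 bp), 5 in Ddr2 (3817 bp), 2 in Fgfr2 (2611 bp), 1 in Egfr (3292 bp), 1 in Pdgfrb (8248 bp) and 0 in Pdgfra, Fgfr1, Igf1r and Axl. One match from each of 3 of these sites is printed with 20 bases on each side, 5′ to 3′ on the strand of the gene, to show the motif in its place, with the match in capitals. The windows lie at chr6:17506842-17506888 (plus) in intron 3 of Met, chr1:170056690-170056736 (minus) in intron 2 of Ddr2 and chr11:16810314-16810360 (plus) in intron 1 of Egfr, in GRCm38.p6.
Met: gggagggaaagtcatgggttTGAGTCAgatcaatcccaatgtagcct
Ddr2: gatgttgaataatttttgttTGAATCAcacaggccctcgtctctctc
Egfr: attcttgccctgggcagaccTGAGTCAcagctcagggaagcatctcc
The middle base of the motif is G in Met and Egfr and A in Ddr2. A match is a stretch of letters and no measure of binding.

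In the flanks, 265 sites were centred within 100 kb of the 10 receptors, 134 upstream and 131 downstream, beside 251 in the genes. Of the flank sites, 141 lay outside other protein-coding genes and over 1 kb from any annotated start. Fgfr3 had 17 sites upstream and 9 downstream, more in all than Pdgfra with 6 and 2 or Egfr with 7 and 9, but its upstream flank holds 5 protein-coding genes, and 10 of the 17 sites were centred in them. Outside genes and starts, 8 flank sites remained for Fgfr3 and 10 for Egfr, and within 50 kb the locus of Fgfr3, gene included, held 9 sites in place of 27. Met had 38 flank sites, 31 of them outside genes and starts, the highest number of the 10, and Fgfr2 had 23 flank sites, all 23 outside. Around Axl, where 7 protein-coding genes lie downstream, 9 of 30 were outside.

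The widest flank site lay in a neighbouring protein-coding gene for some receptors. Around Pdgfrb it was 6674 bp in Camk2a upstream and 4432 bp in Csf1r downstream, a gene for a related receptor kinase that is best known from macrophages. Downstream of Igf1r it was 5418 bp in Fam169b, downstream of Axl 3607 bp in Ccdc97, downstream of Fgfr1 2922 bp in Nsd3 and downstream of Egfr 990 bp in Fbxo48. Upstream of Fgfr3 it was 2808 bp in Gm9903, and upstream of Pdgfra 940 bp in Gsx2. The widest sites without a host gene were those of 4183 and 4078 bp on the downstream and upstream side of Fgfr2 and of 4069 bp upstream of Fgfr1.

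The relatives of each receptor, looked up after the values of the members were seen, were mostly less covered. Among the FGF receptors, Fgfr4 was covered over 3.69% of its body and had 0 intron sites, beside 33.4, 36.3 and 13.7% for Fgfr1, Fgfr2 and Fgfr3. The relatives of Egfr had 9.89% (Erbb2), 9.62% (Erbb3) and 0.72% (Erbb4), beside 27.1%. Insr, the insulin receptor, had 10.7% and Insrr 1.47%, beside 40.7% for Igf1r. Tyro3 and Mertk had 13 and 17.5%, beside 32.1% for Axl, and Mst1r had 12.1%, beside 18.7% for Met. Kit and Csf1r, of the PDGF receptor family, had 0.898 and 22.7%, so that Csf1r lay above Pdgfra and below Pdgfrb. Ddr1 was covered over 33.8%, more than Ddr2.

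Of all 48 other receptor tyrosine kinases, 40 had a site at the most upstream start and 33 a covered reference start. The most covered were the Eph receptors Ephb3 (52.8%), Epha2 (51.7%) and Epha1 (49.8%), which bind ephrins on neighbouring cells. The least covered were Ephb1 (0.135%), Epha10 and Styk1, the last pair with 0 covered bases. The coverage of the 10 receptors, 11.1 to 40.7%, lay within this range.

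**Figure D5:**
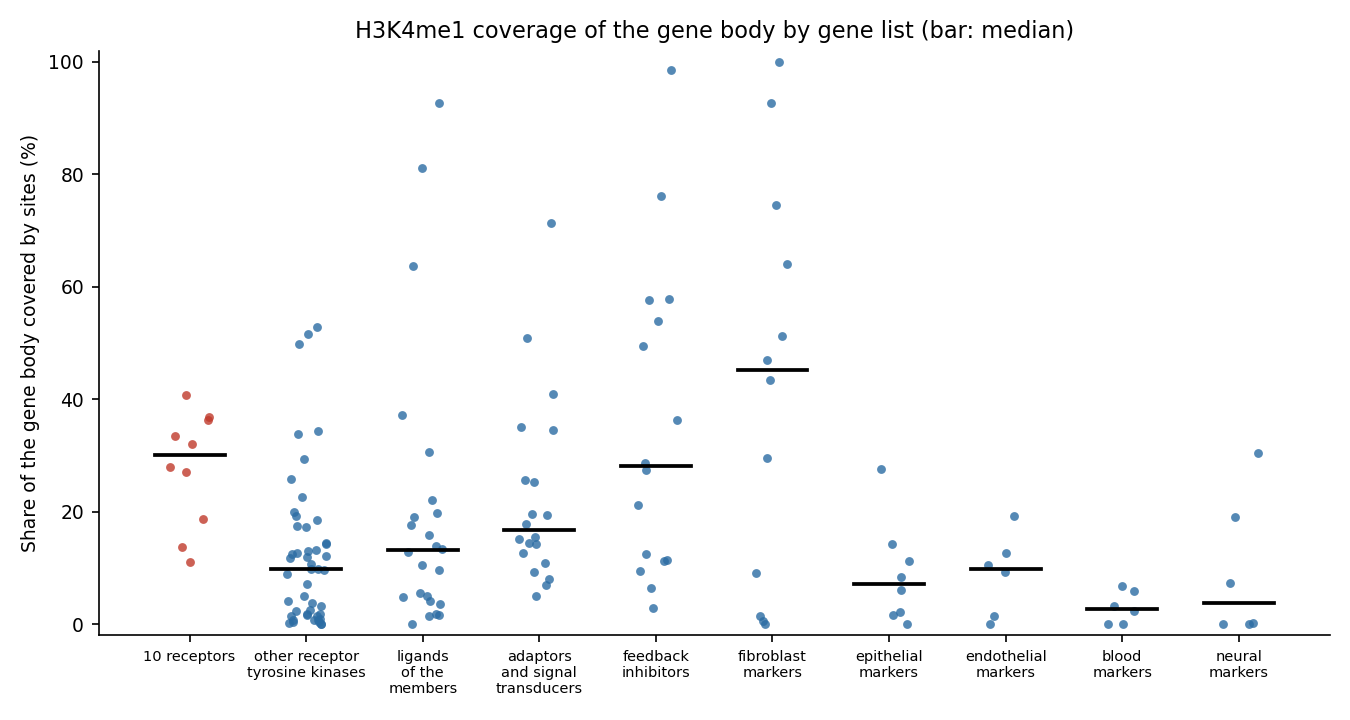
Share of the gene body covered by sites, in percent, for the 10 receptors (red) and for the genes of 9 other lists (blue). Each point is 1 gene and each black bar the median, which is 30% for the receptors, 9.89% for other receptor tyrosine kinases, 28.1% for feedback inhibitors and 45.1% for fibroblast markers. The lists differ in median gene length, in the same order 79.7, 55.3, 15.1 and 26.4 kb, and a site at the start fills more of a short gene. Pooled over bases, coverage was 31.1, 5.76, 18.8 and 27.7%.

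Among 24 genes for ligands of the receptors, 21 had a site at the most upstream start, and the median coverage was 13.1%. Highest were Col1a1 (92.7%), whose collagen binds DDR2, Hbegf (81.1%), a ligand of EGFR, and Pdgfa (63.7%), a ligand of PDGFRA. Lowest were Hgf (1.55%), the ligand of MET, Col3a1 (1.5%) and Igf2 (0), a ligand of IGF1R. No site lay at the most upstream start of Fgf10, Col3a1 and Igf2. For Met, a receptor with 28 intron sites thus stood beside a ligand gene with 2.

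All 20 genes for adaptors and signal transducers had a site at the start, and their median coverage was 16.7%. Irs2 (71.3%), an adaptor of IGF1R, Shc1 (50.9%) and Frs2 (41%), the adaptor of FGF receptors, were highest, and Braf (7.95%) and Sos1 (6.95%) were among the lowest. The 16 feedback inhibitors also all had a site at the start, with a median coverage of 28.1% at a median length of 15.1 kb. Socs3 (98.6%), Spry2 (76.1%) and Dusp6 (57.8%), which damp cytokine and MAPK signals, were highest, and Nf1 (9.45%), Spred1 (6.43%) and Rasa1 (2.89%) were lowest.

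The fibroblast label was compared with marker genes. Of 12 fibroblast markers, 10 had a site at the most upstream start, and S100a4 (100.0%), Col1a1 (92.7%) and Twist1 (74.5%) were most covered. Of the other 2, Lum had 0 covered bases and Col3a1 1.5%, and Dcn, with a site at its start, had 0.519%. A site at the most upstream start was found for 6 of 8 epithelial, 3 of 6 endothelial, 4 of 6 neural and 0 of 6 blood markers. At the start of the reference transcript the endothelial count was 1 of 6, and the other counts were the same. The median coverage of these lists was 7.21, 9.83, 3.76 and 2.74%, beside 45.1% for the fibroblast markers. Pooled over bases, it was 9.97, 11.5, 1.88 and 2.84%, beside 27.7%. The most covered genes of these lists were Cdh1 (27.6%), Pecam1 (19.2%), Dlg4 (30.5%) and Spi1 (6.75%), the first 3 within the range of the 10 receptors. Since 63.8% of all genes had a site at the most upstream start, its presence does not mark a cell type. The table holds no expression values for any receptor.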

How the data were processed

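For the 14 libraries the authors trimmed the reads, used BWA for alignment to mm10 and samtools for filtering, joined replicates, and called broad peaks with Macs. Versions are not given in the sources used here. The deposited table, per the file headers, holds positions in bases only, the start and end of 160144 peaks in a single set. Starts are counted from 0 there and from 1 here.

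Positions were compared in Python 3.11.15 (numpy 2.4.6, pysam for sequences, matplotlib 3.10.9 for figures). Genes came from GENCODE release M21 and bases from GRCm38.p6, both of the build of the table. The interval functions equalled a direct count in 100% of 400 simulated windows.

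A gene was the span of its reference transcript. The whole gene record, as first planned, was replaced after seeing that a single transcript extends Fgfr2 to 2960.9 kb. Sites counted as inside an intron or gene by their centre, and as covering a base by an overlap of 1 bp. CpG islands were scored with 17 per CpG and -1 per other base on repeat-masked sequence (over 200 bp, at least 50% GC, ratio of observed to expected CpG over 0.6), which gave 16099. In each other gene list, the 3 genes with the highest and the 3 with the lowest coverage were to be named. So were genes without a site at the most upstream start, where they were 5 or fewer. For the marker lists of other cell types counts and the most covered gene of each are given in place of these names. The 10 receptors and all lists were chosen with earlier results of these data known. Changes over time were not analysed here, and no test was made. A gene of the adaptor list and a sequence window are not reported here. Alternatives in the minimum width, the joining of sites, the extent of introns, genes and flanks, and the start used are given in the closing section.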

Additional observations from a re-analysis of the deposited data

How the results depend on the processing

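Of 26 alternatives to the 7 summary values, 22 were planned and 4 were added after seeing the data, and 20 moved the value by no more than 1.5 times. The 238 intron sites became 153 with only sites of at least 500 bp and 114 after joining those 1 kb or less apart, and the pooled density of the 9 receptors other than Fgfr3 went from 2.61 to 1.68 and 1.25 per 10 kb. The 516 sites over the loci became 325 with the minimum width, and 804 over whole gene records, since the record of Fgfr2 alone then held 347. Over its whole record Fgfr2 was covered at 12.9% in place of 36.3%. The density of Fgfr3 was 0 under the minimum width, joining, stricter introns and removal of sites near starts. The minimum width, the stricter introns and the removal near starts can only take sites away, so their 0 was fixed beforehand. Joining could not raise it either, since no other site lay within 1 kb of the only site of Fgfr3. These alternatives still count among the 20. If any overlap with an intron counted, the density of Fgfr3 was 0.901 per 10 kb, from its 1 site, and Axl (0.737) was then the lowest. For single receptors, 110 of 140 alternative values stayed within 1.5 times, and Ddr2 moved from 2.47 to 0.848 sites per 10 kb on merging. Without Igf1r, 160 intron sites remained. No paired analysis was possible because positions were deposited for all libraries together, and for the same reason no replicate could be left out and the depth of the libraries sets an unknown limit on narrow or weak sites.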
